A study of Homo sapiens with 36 samples.

Results

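The genes described here are 29 targets of the transcription factor p53, taken by symbol and matched through GENCODE to the Ensembl gene IDs of the count tables. All 29 were found among the 58302 gene IDs that the tables hold. Their levels were read in JEKO, MINO and UPN-1, 3 established cell lines from human mantle cell lymphoma, a B-cell cancer, all kept in RPMI-1640 medium with serum. Each line was given either GS716054, which blocks the KDM5 histone demethylases, or its vehicle DMSO, and was collected after 24 h or 72 h. This gave 12 groups of 3 biological replicates and 36 RNA sequencing libraries. The concentration of GS716054 is not stated in the sources used here.

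p53 is a sequence-specific transcription factor that is held at a low level by MDM2, a ubiquitin ligase which p53 itself induces, and that is stabilised by DNA damage and other stress. Its targets arrest the cell cycle, repair DNA, adjust metabolism, promote cell death and limit p53 in turn. KDM5 enzymes remove methyl groups from lysine 4 of histone H3, a mark found at active promoters, and p53 targets include growth-restraining genes that are of interest in a lymphoma driven by cyclin D1.

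The sequence that p53 is known to recognise is a pair of 10-base units, and the positions of the best match near a gene's start help to place the members whose levels are given below. A search of both strands within 2000 bases of each RefSeq start on GRCh38 allowed 2 mismatches to the 20-base p53 consensus. Of the 23 members with an entry in the RefSeq promoter table, 12 (52.2%) held such a match, as did 11.3% of the 27167 genes scanned. A match is a stretch of letters, not a measured binding site, and the members were chosen as known p53 targets. The 7 elements shown are those of the members whose results are described most closely. Each is given 5′ to 3′ on the strand of its gene, with bases that fit the consensus in capitals and mismatches in lower case.
ZMAT3: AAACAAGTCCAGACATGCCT
MDM2: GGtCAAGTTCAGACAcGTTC
BTG2: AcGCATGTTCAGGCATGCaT
PLK3: GGACAAGgTTGGAgAAGTTT
CCNG1: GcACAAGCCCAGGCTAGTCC
DDB2: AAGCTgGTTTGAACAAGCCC
AEN: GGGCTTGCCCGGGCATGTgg

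The ZMAT3 element, with 0 mismatches, lies in intron 1 at chr3:179070188-179070207 on the minus strand. The MDM2 element lies in intron 1 at chr12:68808923-68808942, and the CCNG1 element in intron 1 at chr5:163437926-163437945, both on the plus strand. The BTG2 element lies outside the transcript at chr1:203303642-203303661, 1877 bases before the start site. The PLK3 element lies at chr1:44798592-44798611, 1785 bases before the start. The DDB2 element is in exon 1 of the GENCODE transcript at chr11:47214969-47214988, and begins 5 bases before the nearest of the gene's RefSeq starts. The AEN element lies at chr15:88621306-88621325, 34 bases before the start. SUSD6, TIGAR and SESN1 had no match within the bases searched. TP53INP1 and RRM2B have no entry in the promoter table and were not searched. A stricter search for an exact 10-base unit in the 250 bases before the start found one in 4 of the 23 members (AEN, FDXR, PLK2 and RPS27L) and in 5.58% of 34943 promoters. The 250-base promoter of BTG2, the member with the highest vehicle level per length at 24 h, is printed because BTG2 was the member called in the test of a difference among lines described below. It lies at chr1:203305269-203305518 on the plus strand, has 30 CG dinucleotides against a median of 11 over all promoters, and holds no exact 10-base unit. Over the members in the promoter table this CG count ran from 6 (TP53I3) to 38 (POLH).
BTG2 promoter: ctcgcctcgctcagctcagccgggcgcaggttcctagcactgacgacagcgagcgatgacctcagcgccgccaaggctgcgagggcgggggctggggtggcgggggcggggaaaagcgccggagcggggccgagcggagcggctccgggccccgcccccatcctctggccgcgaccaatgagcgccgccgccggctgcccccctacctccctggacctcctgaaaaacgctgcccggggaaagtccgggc

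Each library held between 8784815 and 14970876 reads in genes (median 11926903), and values are normalised read counts on the CPM scale, which divides by library size after TMM scaling of all 36 libraries. A count of 0 in 1 library allows up to 3 counts, which is 0.2 to 0.341 CPM, and covers counting error only. The 8 markers of B cells and mantle cell lymphoma summed to 2689 to 8282 CPM, with CCND1, the lymphoma's cyclin D1, up to 3091 CPM. Myeloid markers summed to 0 to 6.58 CPM, with MPO at 0 in every library, and fibroblast and epithelial markers to 3.38 to 20.2 CPM. At 72 h replicate 2 of MINO stood apart from replicates 1 and 3 in both arms, which shows in several members below. In 5 of the 6 comparisons libraries with the same replicate number deviated together, so calls with the replicate number as a block are given where they differ. The first such fit pairs a number across both times, and a second, chosen after the data were seen, pairs it within each time.

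In edgeR fits of each line's 12 libraries, without a block and with the low-count filter, members were called in MINO only, all upward. A member was called where edgeR's quasi-likelihood test gave an adjusted p (Benjamini-Hochberg, all tested genes together) below 0.05. In MINO 3 of 25 tested members rose at 24 h (TP53INP1, BTG2 and ZMAT3), where 1.44% of all 15028 tested genes rose, and no member fell, where 0.952% of all genes did. At 72 h 5 of 25 rose (BTG2, TP53INP1, SUSD6, ZMAT3 and MDM2), against 3.51% of all genes, and no member fell, against 2.05%. In JEKO no member of 25 was called at 24 h, where 0.018% of 16690 genes were called, or at 72 h, where 0.3% were. In UPN-1 no member of 23 was called at 24 h or 72 h, where 0.0262% and 0.334% of 15248 genes were called. Unadjusted p fell under 0.05 for 1 member at 24 h in JEKO (3.97% of all genes) and 7 at 72 h (8.62%), for 9 (17.7%) and 6 (22.2%) in MINO, and for 1 (3.78%) and 2 (7.41%) in UPN-1. In a culture, a lower share of expressing cells and less RNA per cell cannot be told apart, and neither can their opposites.

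With the replicate block 5 members were called in MINO at 24 h (6.61% of all genes), PLK3 and SUSD6 joining those above, and 5 at 72 h (10.2%). None was called in JEKO at 24 h (0.0479%) or 72 h (0.677%), or in UPN-1 (0.0787% and 1.46%). With the block within each time 8 members were called in MINO at 24 h (15.8%) and 8 at 72 h (20.2%), 1 of them lower at each time. JEKO then had 0 calls at 24 h (0.0899%) and 4 at 72 h (3.34%). UPN-1 had 1 (1.5%) and 4 (7.47%). DESeq2 called 5 members in MINO at 24 h (6.24%) and 5 at 72 h (10.4%), DDB2 alone in JEKO at 72 h (1.36%), and none in JEKO at 24 h (0.186%) or in UPN-1 at 24 h (0.138%) or 72 h (1.08%).

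The median log2 fold change over the tested members was 0.236 at 24 h and 0.18 at 72 h in MINO, where the medians over all tested genes were 0.00508 and -0.0265. It was 0.0655 and -0.00523 in JEKO, and -0.0649 and -0.0807 in UPN-1, with all-gene medians between -0.00621 and 0.00355. In MINO all 3 treated libraries lay above all 3 DMSO libraries for 10 of 25 members at 24 h (19.9% of all genes) and for 6 at 72 h (12.3%). They lay below for 3 members at 24 h (15.1%) and for POLH alone at 72 h (9.99%). In JEKO the treated libraries lay above for 0 and below for 0 members at 24 h, where the shares over all genes were 7.02% and 5.52%. At 72 h in JEKO they lay above for 5 (6.51%) and below for 2 (4.83%). In UPN-1 they lay above for 1 member (7.82%) and below for 5 (6.96%) at 24 h, and for none in either direction at 72 h (5.15% and 3.8%). 

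**Figure D1:**
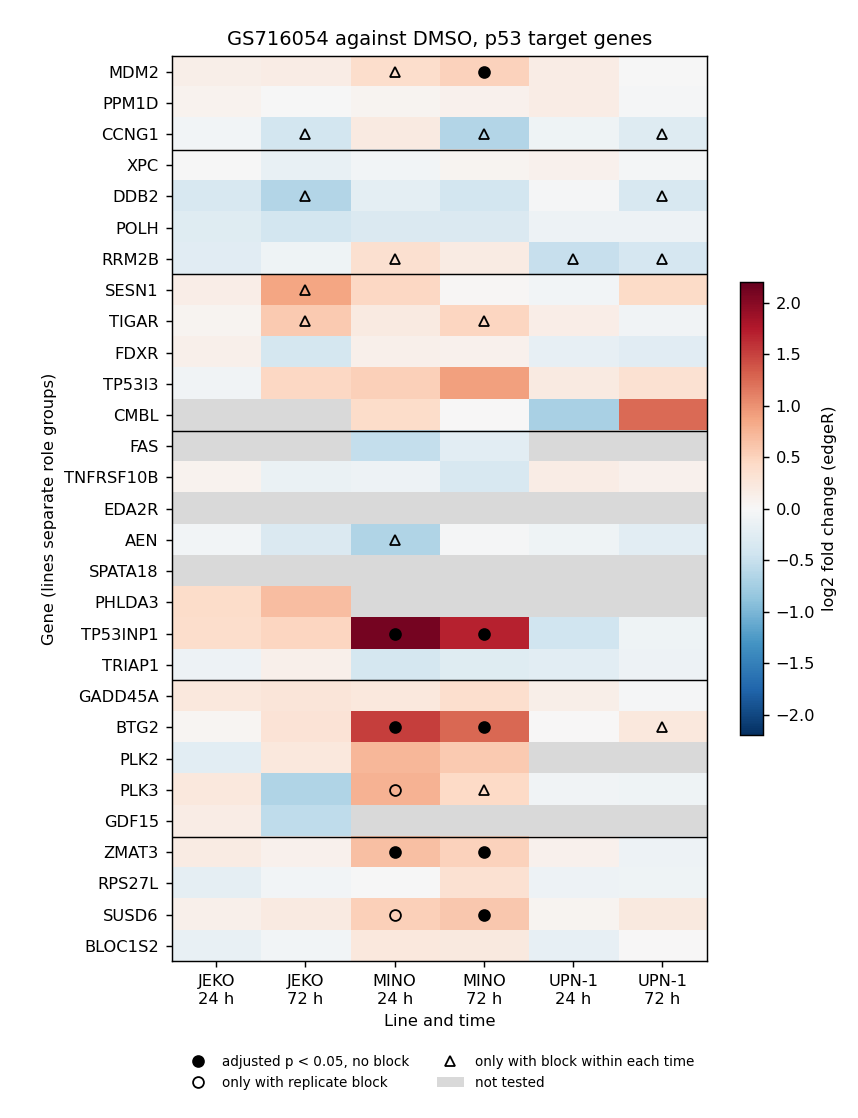
Log2 fold changes of GS716054 against DMSO (colour, edgeR) for the 29 p53 target genes (rows, grouped by role) in 3 lines at 24 h and 72 h (columns); filled circles mark an adjusted p under 0.05 without a block, open circles calls gained with the replicate block, triangles calls gained only with the block within each time, and grey cells genes that were not tested. The filled circles are all in the MINO columns, 3 at 24 h and 5 at 72 h.

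Among the genes that arrest proliferation or signal stress, BTG2 gave the clearest difference. BTG2 is an antiproliferative cofactor of mRNA deadenylation and lies at chr1:203305491-203309602 on the plus strand. At 24 h in MINO it stood at 129, 121 and 127 CPM in DMSO and at 350, 413 and 338 CPM with GS716054, in the order of replicates 1, 2 and 3. All treated libraries lay far above all DMSO libraries. The fold was 2.86 (log2 fold change 1.52 ± 0.205 SE, edgeR adjusted p 0.00572). At 72 h DMSO libraries held 157, 260 and 162 CPM and treated ones 383, 593 and 428 CPM, a fold of 2.41 (log2 1.27 ± 0.203 SE, edgeR adjusted p 0.00418). Replicate 2 was the highest in both arms at 72 h, and each treated library exceeded the DMSO library of its own number in 3 of 3 pairs. On the 6 libraries of 72 h alone the call was lost (log2 1.27, edgeR adjusted p 0.0809), and without both replicate 2 libraries the log2 fold change was 1.31 (1.17e-05).

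In the other lines BTG2 was close to its vehicle level at 24 h. JEKO held 219, 199 and 195 CPM in DMSO and 238, 214 and 185 CPM with GS716054, and UPN-1 held 99.7, 95.3 and 102 CPM against 100, 98.6 and 100 CPM. In both lines the arms overlapped. The log2 fold changes were 0.044 ± 0.139 SE and 0.0015 ± 0.223 SE. At 72 h JEKO stood at 195, 225 and 204 CPM in DMSO and at 268, 264 and 234 CPM when treated, without overlap (log2 0.30, edgeR adjusted p 0.577). UPN-1 held 132, 205 and 92.8 CPM in DMSO and 157, 216 and 131 CPM when treated, with every treated library above its own-numbered DMSO library (log2 0.24, edgeR adjusted p 0.958, and 0.0158 with the block within each time). The test that the BTG2 effect differs among the 3 lines gave an adjusted p of 0.0112 at 24 h (edgeR, 36 libraries), where 0.106% of 17980 genes were called. At 72 h it gave 0.0865, with no member called (1.01% of genes), and 0.0119 with the replicate block. That test called 3 members at 24 h with the replicate block (BTG2, TP53INP1 and RRM2B, 1.37% of genes) and 2 at 72 h (BTG2 and TP53INP1, 2.94%). With the block within each time it called 4 (5.74%) and 6 (9.78%).

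The other arrest and signalling members were less regular. PLK3, a stress-responsive kinase, held 12.4, 23.9 and 15.4 CPM in MINO DMSO at 24 h and 23.6, 39 and 27.2 CPM with GS716054. The arms overlapped because replicate 2 was the highest in each, while every treated library exceeded its partner. The log2 fold change of 0.76 ± 0.235 SE was not called without a block (edgeR adjusted p 0.11), and was with it (0.0316), without the low-count filter (0.0118), on the 6 libraries alone (0.0462) and by DESeq2 (0.0488). At 72 h PLK3 stood at 17.2, 21.7 and 21.2 CPM in DMSO and at 27.7, 25.7 and 28.8 CPM when treated, without overlap (edgeR adjusted p 0.296, and 0.031 with the block within each time). PLK3 in JEKO held 4.2, 5.32 and 4.56 CPM against 5.08, 4.98 and 6.73 CPM at 24 h and 10.3, 3.95 and 6.21 CPM against 4.98, 3.1 and 4.81 CPM at 72 h. UPN-1 held 1.35, 3.21 and 2.12 CPM against 2.38, 1.75 and 2.17 CPM, and 1.35, 1.09 and 2.05 CPM against 1.33, 1.49 and 1.32 CPM. The arms overlapped in these lines, and none of the blocked or unblocked fits called PLK3. GADD45A, a growth arrest and DNA damage protein, lay above 0 in 5 of 6 comparisons, with log2 fold changes from -0.026 to 0.37 and no call. PLK2, a related kinase, held 0.816 to 4.69 CPM in MINO, with log2 fold changes of 0.73 and 0.57 and no call, and was not tested in UPN-1. GDF15, a secreted stress cytokine, passed the low-count filter in JEKO only, where 72 h libraries ranged from 0.0789 to 6.07 CPM in DMSO and from 0.289 to 3.94 CPM when treated.

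Among the genes tied to cell death, TP53INP1 had the largest fold of all members. TP53INP1 is a stress-induced protein that acts in p53 phosphorylation and autophagy. At 24 h in MINO it stood at 11.1, 6.59 and 8.28 CPM in DMSO and at 31.1, 50 and 32.3 CPM when treated, a fold of 4.31 (log2 2.11 ± 0.364 SE, edgeR adjusted p 0.0146). At 72 h it stood at 14.6, 30.7 and 12.3 CPM in DMSO and at 45.3, 87.9 and 52.6 CPM when treated, a fold of 3.23 (log2 1.69 ± 0.347 SE, edgeR adjusted p 0.0146). The arms did not overlap at either time, and replicate 2 was the highest treated library at both. On the 6 libraries of 72 h alone the call was lost (log2 1.69, edgeR adjusted p 0.0978), and without both replicate 2 libraries the log2 fold change was 1.84 (0.000228). The 24 h call was lost without DMSO replicate 2 or 3 or treated replicate 2 (edgeR adjusted p 0.0719 to 0.0767), with log2 fold changes from 1.85 to 2.08. The 72 h call was lost without DMSO replicate 1 (0.0667) or 3 (0.0635).

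TP53INP1 was not called in the other lines. JEKO held 7.33, 7.17 and 4.56 CPM in DMSO and 8.22, 9.75 and 7.15 CPM when treated at 24 h, and 15.5, 22.7 and 13.6 CPM against 26.5, 26.1 and 18.8 CPM at 72 h. The arms overlapped at both times, with log2 fold changes of 0.39 and 0.47. UPN-1 went the other way at 24 h, with 5.59, 5.89 and 5.79 CPM in DMSO and 5.27, 3.49 and 4.09 CPM when treated (log2 -0.44, edgeR adjusted p 1). At 72 h UPN-1 libraries spread widely within each arm, over 20.9, 34.8 and 5.08 CPM in DMSO and 20, 29.2 and 7.08 CPM when treated, with replicate 3 the lowest in both. The test that the TP53INP1 effect differs among lines gave adjusted p 0.172 at 24 h and 0.282 at 72 h (edgeR), and 0.0197 and 0.0484 with the replicate block.

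AEN, an exonuclease that fragments DNA in apoptosis, had lower treated values in MINO at 24 h, without overlap. Its DMSO libraries held 64.6, 65.3 and 71.7 CPM and its treated libraries 44.4, 37.2 and 47.3 CPM. The log2 fold change of -0.67 ± 0.324 SE was not called without a block (edgeR adjusted p 0.301). It was called without the low-count filter (0.0203), on the 6 libraries compared alone (0.00198) and with the block within each time (0.00555). At 72 h the DMSO libraries of 47, 28 and 49.2 CPM and the treated libraries of 52.5, 18.1 and 53 CPM overlapped, replicate 2 being the lowest in both arms. JEKO held 75.5, 82.7 and 102 CPM against 66.5, 94.5 and 90.7 CPM at 24 h, and 56.9, 39.3 and 61 CPM against 43.4, 38.8 and 43.4 CPM at 72 h. UPN-1 held 82.3, 81 and 95.4 CPM against 82.6, 75 and 85 CPM at 24 h, and 47.2, 29.3 and 72.9 CPM against 40.3, 27.1 and 57.8 CPM at 72 h. The arms overlapped in both lines. AEN lay below 0 in all 6 comparisons, with log2 fold changes from -0.67 to -0.026.

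The remaining death-related members were called in no line by edgeR with or without a block on the 12 libraries of a line. TNFRSF10B, the death receptor DR5, held 22.3 to 89.6 CPM over all libraries, with log2 fold changes from -0.35 to 0.16. FAS, the CD95 death receptor, passed the filter in MINO only, at 1.85 to 3.59 CPM in DMSO and 1.89 to 2.04 CPM when treated at 24 h. At 72 h FAS in MINO held 3.76 to 4.44 CPM in DMSO and 2.08 to 4.35 CPM when treated. TRIAP1, an inhibitor of apoptosis at mitochondria, had log2 fold changes from -0.38 to 0.11. At 24 h its treated libraries lay below all DMSO libraries in MINO and in UPN-1, and the fit on the 6 MINO libraries alone called it lower (log2 -0.39, edgeR adjusted p 0.0327). PHLDA3, a repressor of AKT, passed the filter in JEKO only, at 9.96, 9.24 and 8.72 CPM in DMSO at 72 h and 13.3, 15.2 and 16.2 CPM when treated. These PHLDA3 arms did not overlap, with a log2 fold change of 0.68 ± 0.259 SE that was not called (edgeR adjusted p 0.44, and 0.0584 with the block within each time). EDA2R, a TNF receptor family member, had 0 counts in all 36 libraries and SPATA18, a mitochondrial quality control gene, had 3, so neither was tested.

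**Figure D2:**
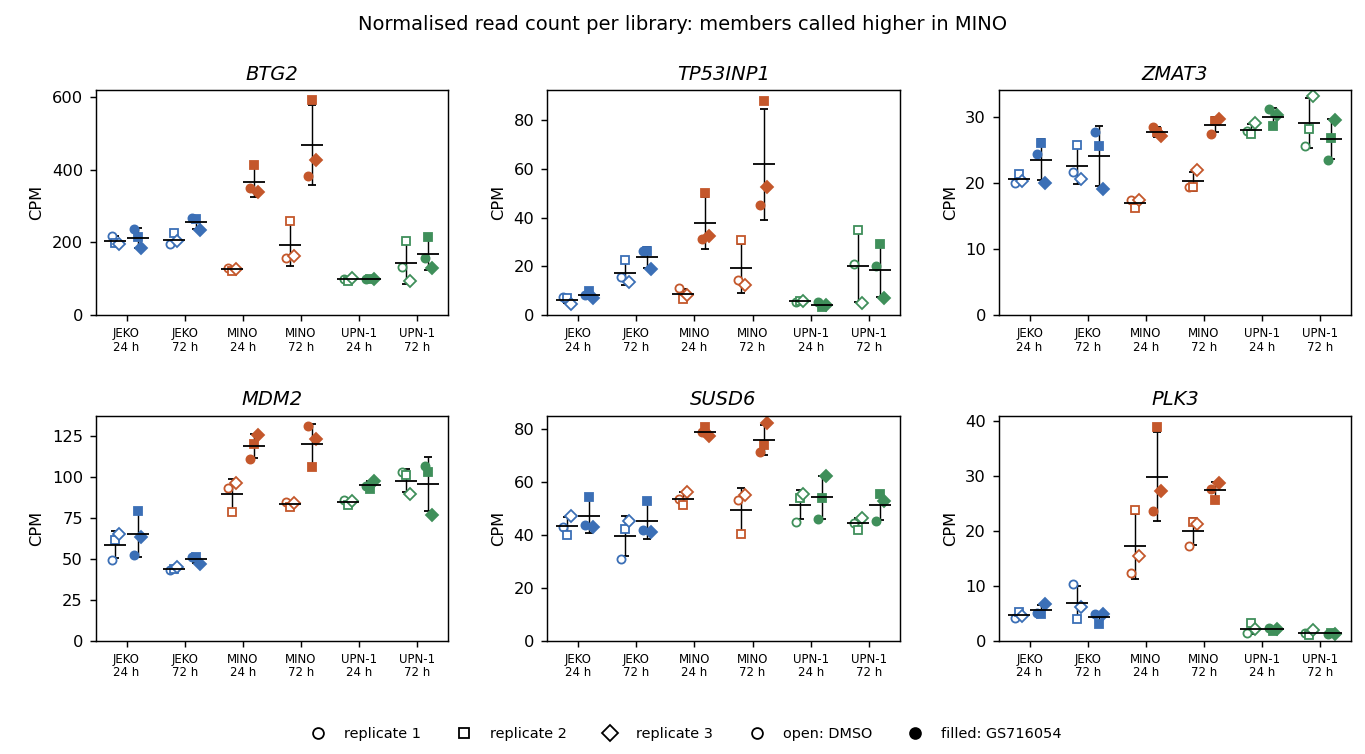
Normalised read counts (CPM, linear axes from 0) of 6 members in each of the 36 libraries, with open symbols for DMSO, filled symbols for GS716054, a symbol shape per replicate number, and black bars for the group mean and SD (n = 3). In MINO the treated libraries lie above the DMSO libraries at both times for BTG2, TP53INP1, ZMAT3, MDM2 and SUSD6, while the arms of PLK3 overlap at 24 h.

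Of the members that restrain p53 or follow damage signalling, MDM2 rose in MINO. MDM2, the ubiquitin ligase of p53 at chr12:68808177-68845544, stood at 93.1, 78.5 and 96.6 CPM in MINO DMSO at 24 h and at 111, 120 and 126 CPM when treated. The arms did not overlap, and the estimate on the log2 scale was 0.39 ± 0.126 SE (edgeR adjusted p 0.13, 0.0223 on the 6 libraries alone and 0.0249 with the block within each time). At 72 h it stood at 85, 82 and 83.9 CPM in DMSO and at 131, 106 and 123 CPM when treated, a fold of 1.42 (log2 0.51 ± 0.127 SE, edgeR adjusted p 0.0346). This call was lost when any library other than treated replicate 2 was left out (edgeR adjusted p 0.0526 to 0.103), without the low-count filter (0.0786) and on the 6 libraries compared alone (0.187). JEKO held 49.7, 61.5 and 65.3 CPM in DMSO and 52.3, 79.3 and 63.6 CPM when treated at 24 h, and 43.5, 43.7 and 45.4 CPM against 51.1, 51.1 and 47.1 CPM at 72 h. UPN-1 held 86, 82.9 and 85.3 CPM against 94.8, 92.8 and 97.8 CPM at 24 h, and 103, 101 and 89.7 CPM against 107, 103 and 76.9 CPM at 72 h. The arms did not overlap at 72 h in JEKO and at 24 h in UPN-1, with log2 fold changes of 0.17 and 0.16 that no fit called. Exons of genes on the opposite strand cover 11.1% of MDM2's exon bases, and whether counting used strand is not stated.

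CCNG1, cyclin G1, which recruits a phosphatase to MDM2, was lower in every treated library than in its partner at 72 h in all 3 lines. In MINO it held 78.7, 213 and 74.9 CPM in DMSO and 63.1, 117 and 54.4 CPM when treated, with replicate 2 far above the others in both arms. The log2 fold change of -0.65 ± 0.354 SE was not called without a block (edgeR adjusted p 0.306). It was called without the low-count filter (-0.66, adjusted p 0.0164) and with the block within each time (-0.57, adjusted p 0.00489). Without both replicate 2 libraries it was -0.42 (edgeR adjusted p 0.0261). In JEKO at 72 h CCNG1 held 47.1, 97.6 and 67 CPM in DMSO and 35.9, 69.8 and 52.8 CPM when treated, and in UPN-1 109, 104 and 76.9 CPM against 85.3, 98.4 and 52.6 CPM. The arms overlapped in both lines. Both differences were called only with the block within each time (edgeR adjusted p 0.0479 in JEKO and 0.0285 in UPN-1). At 24 h MINO went the other way without overlap, with 74, 68.4 and 67.5 CPM in DMSO and 78, 86.1 and 82.2 CPM when treated, and no fit called it. At 24 h JEKO held 48.9, 53.2 and 44.5 CPM against 49.6, 52.4 and 40.1 CPM, and UPN-1 69.7, 80.2 and 74.1 CPM against 74.6, 76.8 and 59.9 CPM. PPM1D, the phosphatase WIP1 that turns p53 signalling off, had log2 fold changes from -0.032 to 0.16 and no call.

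No repair or nucleotide gene was called in a single line by edgeR without a block and with the low-count filter. DDB2, the damage sensor of nucleotide excision repair, lay below 0 in all 6 comparisons. In JEKO at 72 h it held 50.5, 46.4 and 46.8 CPM in DMSO and 26.2, 30.7 and 34.9 CPM when treated. These arms did not overlap, and the estimate on the log2 scale was -0.64 ± 0.163 SE (edgeR adjusted p 0.147, 0.039 without the low-count filter and 0.026 with the block within each time, and DESeq2 adjusted p 0.029). At 24 h JEKO held 40.2, 37.6 and 27.6 CPM against 30.7, 25.6 and 26.9 CPM, and the arms overlapped. UPN-1 at 72 h held 43.2, 43.5 and 28.1 CPM against 41, 28.6 and 19.5 CPM, overlapping but lower in every numbered pair (edgeR adjusted p 0.862, and 0.045 with the block within each time). In MINO at 72 h DDB2 held 35.3, 23.5 and 34 CPM against 28.4, 19.4 and 23.1 CPM (log2 -0.41, no call in any fit). The 24 h values were 25.4, 27.5 and 22.7 CPM against 26.8, 18.2 and 22.1 CPM in MINO and 22.1, 24.3 and 20 CPM against 23.7, 19.1 and 22.4 CPM in UPN-1. The mean effect over the lines at 72 h was -0.47 ± 0.121 SE on the log2 scale (edgeR adjusted p 0.0177).

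RRM2B, the p53-induced subunit of ribonucleotide reductase, had opposite signs in UPN-1 and MINO at 24 h. In UPN-1 at 24 h it held 22, 22.5 and 21.7 CPM in DMSO and 15.6, 16.7 and 14.7 CPM when treated, without overlap. The estimate on the log2 scale was -0.50 ± 0.158 SE (edgeR adjusted p 0.858, and 0.0227 with the block within each time). In MINO at 24 h it held 44.2, 42.1 and 36.6 CPM in DMSO and 52.7, 58.8 and 49.3 CPM when treated, also without overlap. There the estimate on the log2 scale was 0.36 ± 0.163 SE (edgeR adjusted p 0.273, and 0.0428 with the block within each time). The test of a difference among lines at 24 h gave an adjusted p of 0.261 (edgeR), and 0.0484 with the replicate block. At 72 h UPN-1 held 21.7, 25.6 and 20.2 CPM against 17.8, 20.3 and 13.6 CPM (edgeR adjusted p 0.596, and 0.0343 with the block within each time), and MINO 43.2, 49.3 and 39.4 CPM against 46.8, 63.1 and 40.6 CPM. The arms overlapped in both lines. JEKO held 28.3, 23.6 and 25.5 CPM against 21.6, 24.7 and 19.2 CPM at 24 h, and 13.6, 24.4 and 18.3 CPM against 16.9, 21.1 and 14.4 CPM at 72 h, overlapping at both times.

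POLH, the translesion DNA polymerase eta, lay below 0 in all 6 comparisons with log2 fold changes from -0.40 to -0.12, none of them called. Its mean effect over the lines at 72 h was called with the replicate block (log2 -0.27 ± 0.0754 SE, edgeR adjusted p 0.0199). XPC, which recognises bulky DNA lesions, had log2 fold changes from -0.16 to 0.099 and no call. Exons of opposite-strand genes, XPC-AS1 among them, cover 24.6% of the exon bases of XPC.

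**Figure D3:**
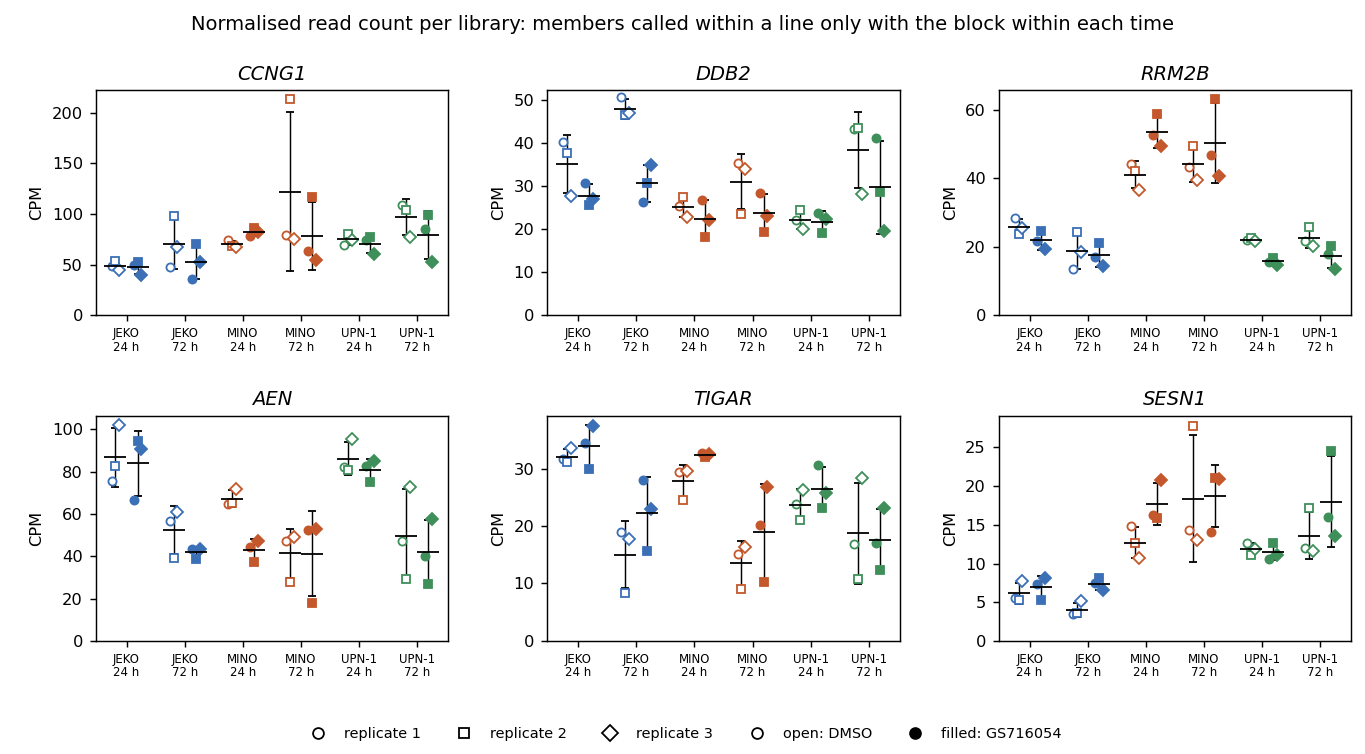
Normalised read counts (CPM, linear axes from 0) of 6 further members in each of the 36 libraries, with open symbols for DMSO, filled symbols for GS716054, a symbol shape per replicate number, and black bars for the group mean and SD (n = 3). CCNG1 replicate 2 of MINO at 72 h stands at 213 CPM in DMSO and 117 CPM when treated, and in JEKO at 72 h the DDB2 arms do not overlap.

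The metabolic and redox genes were called in no line without a block. SESN1, a sestrin that restrains mTORC1, held 3.47, 3.55 and 5.1 CPM in JEKO DMSO at 72 h and 7.5, 8.08 and 6.53 CPM when treated. These arms did not overlap, and the estimate on the log2 scale was 0.87 ± 0.251 SE (edgeR adjusted p 0.218, and 0.0481 with the block within each time). In MINO SESN1 held 14.8, 12.7 and 10.7 CPM in DMSO and 16.3, 15.9 and 20.8 CPM when treated at 24 h, without overlap, and 14.3, 27.8 and 13 CPM against 14.1, 21.1 and 20.9 CPM at 72 h. UPN-1 held 12, 17.2 and 11.6 CPM against 16, 24.6 and 13.5 CPM at 72 h, higher in every numbered pair (edgeR adjusted p 0.0513 with the block within each time). The 24 h values were 12.6, 11.1 and 11.9 CPM against 10.6, 12.6 and 11.1 CPM in UPN-1, and 5.54, 5.24 and 7.72 CPM against 7.41, 5.24 and 8.08 CPM in JEKO. 

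TIGAR, which lowers glycolytic flux, held 19, 8.37 and 17.7 CPM in JEKO DMSO at 72 h and 28.1, 15.7 and 23 CPM when treated. The arms overlapped, with every treated library above its partner (log2 0.57 ± 0.264 SE, edgeR adjusted p 0.577, and 0.0296 with the block within each time). MINO at 72 h held 15.2, 8.99 and 16.3 CPM against 20.1, 10.2 and 26.8 CPM, again higher in every pair (edgeR adjusted p 0.381, and 0.0419 with the block within each time). Without both replicate 2 libraries, the lowest of each MINO arm at 72 h, TIGAR's log2 fold change was 0.55 (edgeR adjusted p 0.028). At 24 h TIGAR held 29.4, 24.5 and 29.5 CPM against 32.7, 32 and 32.6 CPM in MINO, without overlap, and 31.7, 31.1 and 33.5 CPM against 34.4, 29.9 and 37.4 CPM in JEKO. UPN-1 held 23.8, 21 and 26.3 CPM against 30.7, 23.2 and 25.7 CPM at 24 h, and 16.9, 10.8 and 28.3 CPM against 17.1, 12.3 and 23.1 CPM at 72 h. A further gene on the same strand shares 18.1% of TIGAR's exon bases.

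TP53I3, a quinone oxidoreductase, lay above 0 in 5 of 6 comparisons without a call, and at 72 h its mean effect over the lines was called with the replicate block (log2 0.54 ± 0.155 SE, edgeR adjusted p 0.0256). In JEKO at 72 h it held 20.5 to 24.2 CPM in DMSO and 26.9 to 36.7 CPM when treated, without overlap. FDXR, ferredoxin reductase of the mitochondrion, had log2 fold changes from -0.39 to 0.12, with treated JEKO libraries at 72 h (16.4 to 19.9 CPM) below all DMSO libraries (22.8 to 27.4 CPM) and no call. CMBL, a hydrolase, had at most 3.14 CPM in any library and no call.

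ZMAT3, a zinc finger RNA-binding protein at chr3:178960121-179072215, and SUSD6, a membrane protein at chr14:69611596-69715144, rose in MINO. ZMAT3 stood at 17.4, 16.2 and 17.4 CPM in DMSO at 24 h and at 28.4, 27.7 and 27 CPM when treated, with little spread within either arm. The fold was 1.60 (log2 0.67 ± 0.122 SE, edgeR adjusted p 0.0178). At 72 h it stood at 19.3, 19.4 and 21.9 CPM in DMSO and at 27.4, 29.3 and 29.6 CPM when treated, a fold of 1.41 (log2 0.50 ± 0.121 SE, edgeR adjusted p 0.0315). Leaving out any 1 of the 6 libraries ended the 24 h call (edgeR adjusted p 0.0604 to 0.0914), with log2 fold changes from 0.64 to 0.69. The 72 h call ended without any of 5 of them (0.0518 to 0.12), the exception being treated replicate 2, without the low-count filter (0.171) and on the 6 libraries compared alone (0.21). JEKO held 20, 21.3 and 20.3 CPM against 24.4, 26 and 20 CPM at 24 h, and 21.6, 25.7 and 20.5 CPM against 27.6, 25.5 and 19 CPM at 72 h. UPN-1 held 27.8, 27.3 and 29.1 CPM against 31.2, 28.6 and 30.3 CPM at 24 h, and 25.6, 28.1 and 33.1 CPM against 23.5, 26.7 and 29.5 CPM at 72 h. The arms of ZMAT3 overlapped in both of these lines at both times.

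SUSD6 stood at 53.6, 51.2 and 56.3 CPM in MINO DMSO at 24 h and at 79.1, 80.9 and 77.3 CPM when treated, a clear gap between the arms. The estimate on the log2 scale was 0.53 ± 0.132 SE (edgeR adjusted p 0.0569, 0.0263 with the replicate block and 0.0235 in the fit of all 36 libraries, and DESeq2 adjusted p 0.00925). At 72 h it stood at 53.4, 40.4 and 55 CPM in DMSO and at 71.4, 73.9 and 82.3 CPM when treated, a fold of 1.51 (log2 0.60 ± 0.132 SE, edgeR adjusted p 0.0212). The 72 h call was lost without treated replicate 3 (log2 0.51, edgeR adjusted p 0.0842) and on the 6 libraries compared alone (0.60, 0.172). JEKO held 43, 40 and 47.1 CPM against 43.7, 54.3 and 43.1 CPM at 24 h, and 30.9, 42.3 and 45.3 CPM against 41.8, 52.7 and 41 CPM at 72 h. UPN-1 held 45.1, 53.8 and 55.4 CPM against 46.1, 54 and 62.4 CPM at 24 h, and 44.7, 42 and 46.3 CPM against 45.2, 55.5 and 52.8 CPM at 72 h. SUSD6 lay above 0 in all 6 comparisons, with overlapping arms in JEKO and UPN-1. RPS27L, a ribosomal protein paralogue, had log2 fold changes from -0.19 to 0.33 and BLOC1S2, a lysosome-related organelle subunit, from -0.18 to 0.24, with no call.

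Over the 3 lines together, 2 of 27 members rose at 24 h, where 0.645% of 17980 genes did, namely BTG2 (log2 0.54, edgeR adjusted p 0.0185) and ZMAT3 (0.33, 0.0295), and none fell (0.284%). At 72 h BTG2 (log2 0.60, edgeR adjusted p 0.0018) and SUSD6 (0.34, 0.0132) rose and DDB2 fell, where 3% of genes rose and 1.66% fell. With the replicate block 2 members were called at 24 h (2.36% of genes) and 8 at 72 h (8.6%), and with the block within each time 7 (9.2%) and 11 (16.7%). BTG2's mean joins effects that differed among the lines at 24 h in the test above, and SUSD6 was above 0 in each line at 72 h (log2 0.20, 0.60 and 0.22). ZMAT3's log2 fold changes at 24 h were 0.67 in MINO, 0.18 in JEKO and 0.088 in UPN-1. The test among lines called ZMAT3 at 24 h only with the block within each time. No member's effect differed between 72 h and 24 h in any line (edgeR without a block), where at most 0.0133% of genes did. Unadjusted p was under 0.05 for 1 member in UPN-1 and for none in JEKO or MINO, and the replicate block called none, where it called 0% of genes in JEKO, 0.0399% in the MINO cells and 0.00656% in UPN-1.

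The vehicle cultures also changed between 24 h and 72 h, by far the most in JEKO, which sets the level on which each treatment comparison rests. In JEKO 4 of 25 members were higher at 72 h and 5 lower, against 17.1% and 14.6% of all genes, so the members' shares were near those of all genes. TP53INP1 rose 2.71-fold (log2 1.44 ± 0.245 SE, edgeR adjusted p 0.00154) and TNFRSF10B 2.09-fold (adjusted p 0.00652). TIGAR decreased by 1.09 on the log2 scale (adjusted p 0.00821), AEN by 0.72 (0.0103) and TP53I3 by 0.75 (0.0147), all in edgeR. In UPN-1 TNFRSF10B alone was called (log2 0.84 ± 0.183 SE, edgeR adjusted p 0.043), where 1.47% of genes were, and in MINO no member was, where 0.0932% of genes were. With the replicate block 12 members were called in JEKO (36.8% of genes), 5 in MINO (12.1% of genes) and 7 in UPN-1 (18.3%). TP53INP1 was then higher at 72 h in MINO (log2 1.04, edgeR adjusted p 0.035) and UPN-1 (1.54, 0.0126), as in JEKO, and so was TNFRSF10B.

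**Figure D4:**
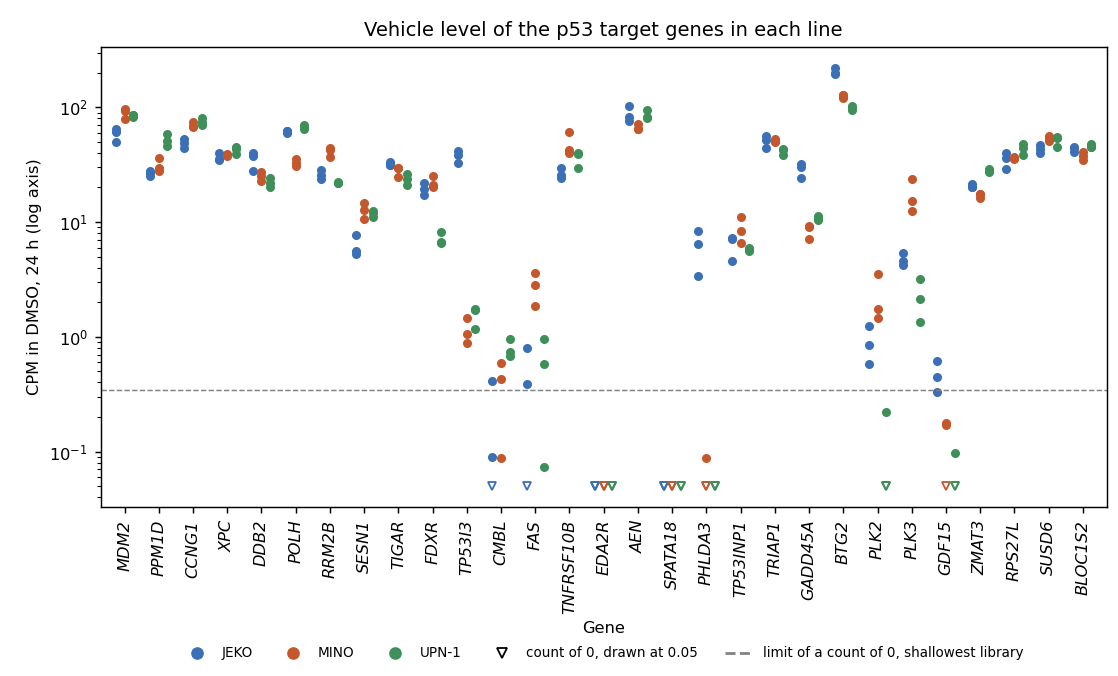
Normalised read counts (CPM, logarithmic axis) of the 29 members in the 3 DMSO libraries of each line at 24 h, 1 point per library, with open triangles for a count of 0 drawn at 0.05 CPM and a dashed line at the limit of a count of 0 in the shallowest library. TP53I3 and PHLDA3 lie higher in JEKO than in the other lines, and FDXR lies lower in UPN-1.

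Vehicle levels of the members differed widely among the lines. At 24 h MINO and JEKO differed in 11 of 27 members (48% of 17980 genes), UPN-1 and JEKO in 12 (44.9%) and UPN-1 and MINO in 8 (44.4%), so the members' shares were at or below those of all genes. TP53I3 stood at 37.7 ± 4.67 CPM in JEKO, 1.13 ± 0.294 CPM in MINO and 1.54 ± 0.334 CPM in UPN-1 (SD, n = 3). JEKO was higher by 5.04 on the log2 scale than MINO (edgeR adjusted p 2.55e-14), while MINO and UPN-1 were not called apart. PHLDA3 had 217 counts in the JEKO DMSO libraries of 24 h, 1 in those of MINO and 0 in those of UPN-1. The ratio to MINO per gene read was 210 (95% exact interval 37.4 to 8351, counting error only). For the ratio to UPN-1 the exact interval's lower limit was 57.9. With UPN-1 set to a floor of 3 counts over the group, that ratio was 71.8. GADD45A stood at 28.8 ± 4.12 CPM in JEKO, 10.9 ± 0.433 CPM in UPN-1 and 8.43 ± 1.19 CPM in MINO (SD, n = 3), and JEKO was above both (edgeR adjusted p 4.3e-06 and 9.41e-05).

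Other members were highest in MINO or UPN-1. PLK3 stood at 17.2 ± 5.96 CPM in MINO, 4.69 ± 0.57 CPM in JEKO and 2.23 ± 0.934 CPM in UPN-1 (SD, n = 3), with all 3 pairs of lines called. FAS was at 2.76 ± 0.874 CPM in MINO and under 1 CPM in every 24 h DMSO library of the other lines, and RRM2B at 41 ± 3.92 CPM in MINO against 25.8 ± 2.39 and 22 ± 0.399 CPM in JEKO and UPN-1. PPM1D was highest in UPN-1, at 51.9 CPM against 31.3 CPM in MINO and 26.4 CPM in JEKO. FDXR was lowest there, at 7.12 ± 0.879 CPM against 19.6 ± 2.46 CPM in JEKO and 22.2 ± 2.55 CPM in MINO (SD, n = 3; edgeR adjusted p 1.93e-07 and 2.26e-08). BTG2 fell in the order JEKO, MINO, UPN-1 (204 ± 12.7, 126 ± 4.61 and 99 ± 3.33 CPM). JEKO exceeded both (edgeR adjusted p 0.00561 and 0.000113), while MINO and UPN-1 were not called apart. MDM2 was lowest in JEKO, at 58.8 CPM against 89.4 CPM in MINO and 84.7 CPM in UPN-1. Levels between genes are comparable only per length. Per kb of canonical transcript, the highest MINO DMSO levels at 24 h were BTG2 at 46 CPM per kb, TRIAP1 at 44.5, CCNG1 at 28.6 and AEN at 21.9, and MDM2 was at 11.9.

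Of 48 further p53 targets listed from general knowledge, with earlier results of these data known, 40, 38 and 40 were tested in JEKO, MINO and UPN-1. None was called in JEKO (0.018% of all genes at 24 h and 0.3% at 72 h) or at 24 h in UPN-1 (0.0262%). In MINO 1 rose at 24 h (1.44% of all genes), and 2 rose (3.51%) and 1 fell (2.05%) at 72 h. In UPN-1 1 rose at 72 h, where 0.334% of all genes were called in either direction. TP53I11, named for its induction by p53, rose in MINO (log2 0.54 at 24 h and 0.72 at 72 h, edgeR adjusted p 0.0309 and 0.00369), as it did in UPN-1 at 72 h (0.78, 0.00886). In JEKO at 72 h its log2 fold change was 0.57 (edgeR adjusted p 0.0927, and 0.0418 with the replicate block). TRIM22, an antiviral ubiquitin ligase, rose in MINO at 72 h (log2 0.78, edgeR adjusted p 0.0103), and its JEKO and UPN-1 values were negative, from -0.81 to -0.36, without a call. SESN2, a sestrin, fell in MINO at 72 h, from 39.1, 32.8 and 44 CPM to 19.2, 24 and 22.3 CPM (log2 -0.84 ± 0.15 SE, edgeR adjusted p 0.00741). The log2 fold changes of FUCA1, a lysosomal fucosidase, and RAP2B, a small GTPase, in MINO at 72 h were 0.57 and 0.46 (edgeR adjusted p 0.0596 and 0.0714, and 0.0404 and 0.0312 with the replicate block).

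CDKN1A, the cell cycle inhibitor p21, was called in no line without a block. In UPN-1 at 72 h it held 29.5, 15.8 and 11.3 CPM in DMSO and 46.3, 27.6 and 25.9 CPM when treated. The arms overlapped, with every treated library above its partner (log2 0.83 ± 0.303 SE, edgeR adjusted p 0.452, and 0.0037 with the replicate block). At 24 h in UPN-1 the log2 fold change was 0.72 (edgeR adjusted p 1, and 0.00742 with the block within each time). In MINO its log2 fold changes were 0.29 at 24 h and -0.067 at 72 h, and in JEKO 0.45 and -0.44. BBC3, the BH3-only protein PUMA, held 26.7, 55.3 and 30 CPM in MINO DMSO at 72 h and 47.7, 95.9 and 49.1 CPM when treated, again with replicate 2 highest in both arms. Its log2 fold change of 0.78 ± 0.313 SE had an edgeR adjusted p of 0.164, and 0.00626 with the replicate block. At 24 h in MINO BBC3 stood at 0.67 (edgeR adjusted p 0.305, and 0.0287 with the block). BAX, a pore-forming death effector, had log2 fold changes from -0.37 to 0.41, and PMAIP1, the BH3-only protein NOXA, from -0.16 to 0.33, without a call in edgeR with or without the replicate block.

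Among 25 regulators of p53, all tested in each line, SETD7, a lysine methyltransferase, fell in MINO at 24 h and 72 h (log2 -0.59 and -0.54, edgeR adjusted p 0.034 and 0.0297) and no other was called in any line. Over all genes 0.952% and 2.05% fell in MINO at these times. MDM4, the partner of MDM2, had log2 fold changes from -0.17 to 0.15. At 72 h in MINO PPP1R13B, which directs p53 to death genes, was at 0.56, HUWE1, a ubiquitin ligase, at -0.44 and HIPK2, a kinase of p53, at -0.81, with edgeR adjusted p 0.0811 to 0.108 (0.0268, 0.0531 and 0.0515 with the replicate block). Of 14 cell cycle genes that p53 lowers through p21 and the DREAM complex, none was called without a block. All 14 lay below 0 at 72 h in MINO and UPN-1, with medians of -0.453 and -0.207 (-0.0265 and -0.00239 over all tested genes). In JEKO 1 lay above 0 at 24 h and 2 at 72 h (medians -0.148 and -0.15). At 24 h 2 lay above 0 in MINO and 1 in UPN-1 (medians -0.184 and -0.121). BUB1, a spindle checkpoint kinase, was at -0.75 in MINO at 72 h (edgeR adjusted p 0.053, and 0.0109 with the replicate block), and CDC25C, PRC1 and TOP2A at -0.57, -0.50 and -0.56.

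Other stress programmes with targets in common were read alongside. Of 12 genes of the ATF4 response, 10 were tested in MINO, where 2 fell at 24 h (0.952% of all genes) and 5 at 72 h (2.05%). The median at 72 h was -1.32. ATF4 itself fell in MINO by 1.10 on the log2 scale at 72 h (edgeR adjusted p 0.00327), ATF3 by 2.18, SLC7A11 by 2.18 and CHAC1 by 1.66. SESN2 is also an ATF4 target. Of 12 immediate early genes, 11 were tested in MINO, where EGR2 alone rose, at both times (log2 1.27 and 1.22, edgeR adjusted p 0.0381 and 0.0277). Over all genes 1.44% rose in MINO at 24 h and 3.51% at 72 h. JUN (1.04 at 24 h), JUNB (0.50) and EGR1 (1.40 at 72 h) were not called without a block. No gene of these lists was called in JEKO or UPN-1 without a block, where at most 0.334% of all genes were.

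Markers of other cell types were also read beside the MINO result. The 5 T-cell markers summed to 79.9 to 104 CPM in MINO DMSO and 156 to 182 CPM when treated at 24 h, and to 78.3 to 122 CPM and 140 to 204 CPM at 72 h. Most of this was TRAC (log2 0.86, edgeR adjusted p 0.0321 and 0.0189). CD8A had a mean of 4.3 CPM in DMSO and 11.2 CPM when treated at 24 h, and 10.7 and 19.6 CPM at 72 h. Its log2 fold changes of 1.34 and 0.88 were not called (edgeR adjusted p 0.133 and 0.233). Those of CD3E, 0.84 and 0.37, were not called either (edgeR adjusted p 0.396 and 0.715). The defining CD3D was at 0 in all 12 MINO libraries and CD3G had 3 counts in them. In MINO the B-cell genes MS4A1, CD79B and CD22 rose at 24 h and MS4A1 and CD79A at 72 h, and no myeloid, fibroblast or epithelial marker was called. The part of these shifts in the members' result was not tested.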

How the data were processed

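The authors deposited 1 table of whole-number read counts per gene and library, 36 in all, with no normalisation recorded. Per the submitters' processing notes, HISAT2 2.2.1, HTSeq 0.13.5 and GRCh38 were used. Whether counting used strand is not given in the sources used here. Reads in genes made up 40.7% to 44.91% of each library, and the 5 summary lines, of which unassigned reads held 43.25% to 45.93%, were left out of all tests. Gene IDs were matched to GENCODE v44 (57532 of 58302).

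Differences were tested with edgeR 4.0.16 under R 4.3.3 (quasi-likelihood test, TMM, filterByExpr with minimum count 10 and minimum total 15). Each line was fitted on its 12 libraries, with 8 residual degrees of freedom, and all 36 libraries gave the mean effect and the test among lines. P-values were adjusted by Benjamini-Hochberg over all genes tested. Standard errors were derived from the log2 fold change and its F statistic. Printed CPM use the TMM scaling of all 36 libraries. Of the 29 members, 22 were tested in every line, 5 in some (CMBL, FAS, PHLDA3, PLK2 and GDF15) and 2 in none. Fits were tested on simulated data.

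Same-numbered DMSO and treated libraries of 1 time deviated from their group means with correlations over 0.1 in every pair of 5 comparisons. The exception was JEKO at 24 h, where replicate 2 gave 0.0612. In MINO at 72 h DMSO replicate 3 correlated less with its own number (0.378) than with another (0.436). Between the times the correlations of same-numbered libraries ranged from -0.139 to 0.25 in JEKO, -0.0266 to 0.389 in MINO and 0.024 to 0.352 in UPN-1. The labels name biological replicates without saying what a number shares.

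All members are reported. Values in every library are given for the 12 members called in a treatment comparison or in the test among lines, with or without a block. The fits that count here are edgeR's without a block, with the replicate block and with the block within each time. Of these, the last was added after the data were seen and alone brings in CCNG1, AEN, DDB2, TIGAR and SESN1. CDKN1A, BBC3, BAX, PMAIP1, SESN2 and MDM4 are reported whatever they show, and up to 4 further genes of each other list (p53 targets, p53 regulators, genes lowered through p21 and DREAM, ATF4 response, immediate early genes) by smallest adjusted p. The members and lists were chosen with earlier results of these data known. Alternatives were DESeq2 1.42.0, its size factors in edgeR, no filter, a minimum count of 50, other library sets, replicate blocks and leaving out libraries. Promoters come from RefSeq (GRCh38.p14). Figures used matplotlib 3.10.9.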

Additional observations from a re-analysis of the deposited data

Results flagged for a closer look

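The effect of GS716054 on BTG2 at 24 h differed among the lines by the test of the difference itself (edgeR quasi-likelihood F test on 36 libraries, adjusted p 0.0112). The fold was 2.86 in MINO, where all treated libraries (338 to 413 CPM) lay above all DMSO libraries (121 to 129 CPM), and the arms overlapped in JEKO and UPN-1 (log2 fold changes 0.044 and 0.0015). The adjusted p was 0.000911 with the replicate block. Without replicate 1 or without replicate 3 of every group no member passed this test.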

How the results depend on the processing

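Of 2042 member values under alternatives, 1877 kept their sign and their side of the threshold, 101 differed in sign without a call in either fit, 29 lost a call, 35 gained one and 0 reversed a call. The replicate block raised the number of members called in MINO at 24 h to 5, in the DMSO time comparison to 5 in MINO and 7 in UPN-1, in the mean over the lines at 72 h to 8, and in the test among lines to 3 at 24 h and 2 at 72 h. With the replicate block within each time, an alternative chosen after seeing the data, the numbers were 8 at each time in MINO, 4 at 72 h in each of JEKO and UPN-1, 1 at 24 h in UPN-1, 7 and 11 for the mean over the lines, and 4 and 6 for the test among lines. Without the low-count filter JEKO at 72 h had 1 call (DDB2, lower) and MINO at 24 h 5, of which 1 (AEN) was lower. At 72 h MINO then had 4, with MDM2 and ZMAT3 lost and CCNG1 called lower. DESeq2 gave 1 call in JEKO at 72 h (DDB2) and 5 in MINO at 24 h, with SUSD6 in place of AEN. With only the 6 libraries compared, a smaller fit at both times, MINO had 8 calls at 24 h and 0 at 72 h. Leaving out 1 library at a time gave 1 to 2 calls in MINO at 24 h and 2 to 5 at 72 h. Leaving out 1 replicate number gave 0 to 1 for the mean and for the test among lines at 24 h, and 0 to 2 and 0 to 1 at 72 h. Leaving out both replicate 2 libraries of MINO at 72 h, also chosen after seeing the data, gave 7 calls, the 5 above with TIGAR and CCNG1. The cause of these shifts was not tested. Depth limits EDA2R, SPATA18, PHLDA3, GDF15, CMBL, FAS and PLK2, which lie near the level of a few counts in at least 1 line.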
